A study of Rattus norvegicus with 138 samples.

Results

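The genes described here are 9 members of the MHC class I antigen presentation pathway, RT1-A1, RT1-A2, RT1-S3, B2m, Tap1, Tap2, Tapbp, Psmb8 and Psmb9, taken by gene symbol from the 32883 genes in each of the 3 count tables of the series. The members were taken by name, but earlier results of these data were known when they were chosen. The share of members called is therefore not that of a blind list. All 9 passed the filter on low values in each region. The series measured RNA in tissue punches of 3 brainstem nuclei that control blood pressure, the nucleus of the solitary tract (NTS), the caudal ventrolateral medulla (CVLM) and the rostral ventrolateral medulla (RVLM). The punches came from female spontaneously hypertensive rats (SHR, substrain SHR/NHsd) and female normotensive Wistar-Kyoto rats (WKY, substrain WKY/NHsd), both untreated and bought from Envigo, and each rat gave all 3 regions. For WKY there were 5 rats at 8 wk of age, 4 at 10 wk, and 3 at each of 12, 16 and 24 wk. For SHR there were 5 rats at each of 8 and 10 wk, and 6 at each of 12, 16 and 24 wk. That gave 46 rats, 18 WKY and 28 SHR, with 46 libraries per region. The strains differ in blood pressure and also across their inbred genomes, so the effect of 1 cannot be told apart from the effect of the other.

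MHC class I molecules display short peptides from inside the cell on its surface, where CD8 T cells and natural killer cells read them. The immunoproteasome cuts proteins into peptides, and the TAP transporter carries these into the endoplasmic reticulum. There, tapasin helps to load them onto a heavy chain paired with beta-2 microglobulin. Most of these genes lie within the MHC region, which the rat calls RT1, and many respond to interferon. Neurons and glia in the healthy brain are known for low class I expression.

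The RefSeq promoter table (build GRCr8, the reference rat genome rather than the genome of either strain) held an entry for all 9 members. Stretches of 60 bases are shown for the 8 members in which a motif search found a match, to set the matching letters of each beside its neighbours, and no motif was found in all of them. The motifs searched, on both strands, were GAAANNGAA (the core of an interferon-stimulated response element), GGGNNTTCC (a form of the kappa B site) and TTCNNNGAA (the core of a GAS element). Each sequence reads 5′ to 3′ on the strand of the gene, with the matching letters in capitals, and a match on the opposite strand appears as its reverse complement. The windows were chr20:4907057-4907116 (+) for RT1-A1, chr20:4872671-4872730 (+) for RT1-A2, chr20:2675391-2675450 (+) for RT1-S3, chr3:129549154-129549213 (+) for B2m, chr20:4668630-4668689 (-) for Tap1, chr20:4652304-4652363 (-) for Tap2, chr20:4967870-4967929 (-) for Tapbp and chr20:4657024-4657083 (-) for Psmb8.
RT1-A1: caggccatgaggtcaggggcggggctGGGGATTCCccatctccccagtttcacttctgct
RT1-A2: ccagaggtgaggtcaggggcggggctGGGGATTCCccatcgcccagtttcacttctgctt
RT1-S3: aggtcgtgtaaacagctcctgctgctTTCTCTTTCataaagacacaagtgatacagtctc
B2m: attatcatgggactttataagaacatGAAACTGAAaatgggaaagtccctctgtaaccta
Tap1: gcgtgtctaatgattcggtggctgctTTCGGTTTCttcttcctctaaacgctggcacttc
Tap2: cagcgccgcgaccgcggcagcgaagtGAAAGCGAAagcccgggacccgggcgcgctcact
Tapbp: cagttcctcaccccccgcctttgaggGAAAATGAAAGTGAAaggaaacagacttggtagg
Psmb8: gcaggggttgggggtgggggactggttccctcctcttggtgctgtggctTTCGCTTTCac

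GAAANNGAA was found in 6 of the 9 members, RT1-S3, B2m, Tap1, Tap2, Tapbp and Psmb8, and in 9.71% of the 33469 promoters of the table. In Tapbp it occurred at 2 overlapping positions. GGGNNTTCC was found in RT1-A1 and RT1-A2 and in 5.92% of all promoters. TTCNNNGAA was found in Psmb8 alone among the members, outside the stretch shown, and in 8.87% of all promoters. The promoters of RT1-A1 and RT1-A2 were 92.4% identical over 251 aligned columns. These matches describe letters in a window of the reference and are not measured binding sites. A fixed pattern can miss other forms of a site, so a member without a match is not shown to lack such an element. In the RefSeq gene order, Tap2, Psmb8, Tap1 and Psmb9 follow each other without another coding gene between them, and RT1-A2 is next to RT1-A1.

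The values used are counts of sequenced fragments per gene as estimated by RSEM, which divides fragments that match several genes among them. Library totals ranged from 5904581 to 17889417 counts. Levels are given below as CPM (counts scaled to a fixed library total, here with TMM factors, which removes differences in depth) and as differences on the log2 scale (SHR minus WKY) with their standard error (SE). CPM does not correct for gene length, so levels are compared for 1 gene between samples and not between genes. A difference was called when its p-value, adjusted over all genes tested in the region, was under 0.05 in edgeR's quasi-likelihood test. The column names of 42 libraries, 14 per region, end in 2 and the others in 1. These 42 included every rat of 10 wk but only 5 rats per region at other ages, and the meaning of the number is not given in the sources used here. For 2 CVLM libraries of 8 wk, 1 of each strain, the labels gave 8 wk in the title and 10 wk in the age field, and the title was used.

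The punches held RNA of neurons, glia, vessels and blood. Th and Dbh, which mark catecholamine neurons, were above 0 in every library. T cell and natural killer cell markers were scarce, with Cd3e at 0 in 72, Cd3g in 98 and Nkg7 in 78 of the libraries of all regions. Of the 11 markers of leukocytes other than microglia, 3 passed the filter and 0 were called. Microglial markers summed to 379.3 to 525.9 CPM in WKY NTS and 360.2 to 612.7 CPM in SHR NTS, with 1, 2 and 1 of 10 called lower in NTS, CVLM and RVLM. Red cell markers were lower in SHR, with 2, 4 and 4 of 4 called, and summed to 317 to 1930 CPM in WKY CVLM against 170.3 to 940.2 CPM in SHR CVLM. Oligodendrocyte markers were lower in SHR for 1, 3 and 2 of 4. Of all genes tested, 11.2%, 12.3% and 10.8% were called between the strains in the NTS, CVLM and RVLM. Choroid plexus markers, with Ttr among them, had nearly equal medians in the NTS, 3.88 CPM in WKY and 3.79 CPM in SHR, but single WKY libraries reached up to 4409 CPM and no SHR library more than 7.04 CPM. What part these cells had in the results below was not tested. In bulk samples, fewer cells of a type and less RNA per cell cannot be told apart.

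Averaged over the 5 ages, the class I genes moved in both directions, and no member was called higher in 1 region and lower in another. RT1-A1, Tap2, Tapbp and Psmb8 were higher in SHR in all 3 regions. RT1-A2 and RT1-S3 were lower in SHR in all 3 regions, and Tap1 was lower in the NTS and CVLM. B2m and Psmb9 were not called. In all, 7, 7 and 6 of 9 members were called in the NTS, CVLM and RVLM, where 11.2%, 12.3% and 10.8% of all genes tested were called. The median difference over the 9 members was -0.12, -0.06 and 0.11 on the log2 scale, beside 0.01, -0.003 and 0.009 for all genes, and covers members that rose and members that fell. The plot of the mean strain differences sets the members side by side.

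**Figure D1:**
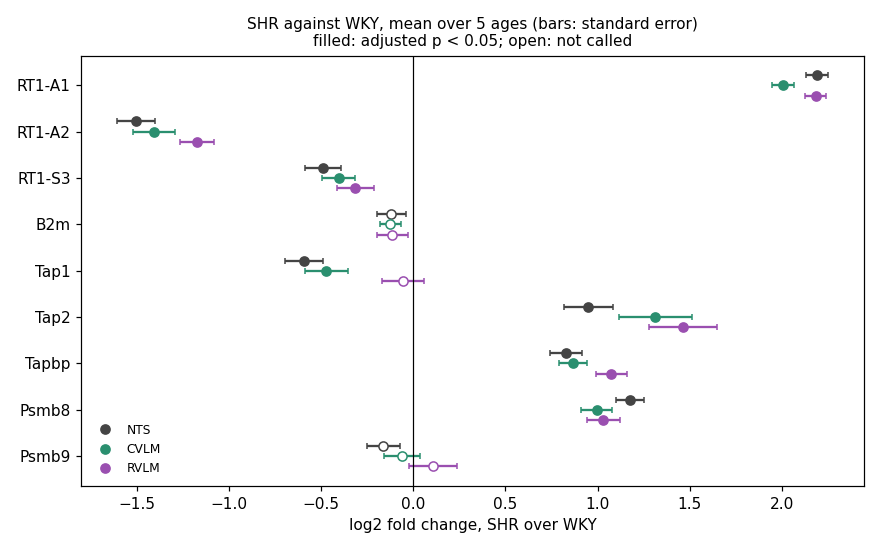
Difference between SHR and WKY in each class I gene (x axis, log2 fold change, mean over 5 ages), with 1 point per region and bars for the standard error. Filled points passed an adjusted p of 0.05. RT1-A1 stands near 2 in every region, RT1-A2 below -1, Tap2, Tapbp and Psmb8 between 0.83 and 1.47, and Tap1 is the member whose RVLM point lies apart from its NTS and CVLM points.

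RT1-A1, a classical class I heavy chain gene, had the widest separation between the strains. In the NTS at 8 wk, its level was 126.8, 104.3, 118.4, 98.5 and 116.5 CPM in the 5 SHR rats and 29.7, 27.7, 17.9, 21.2 and 17.6 CPM in the 5 WKY rats. At 24 wk, the 6 SHR rats ranged from 123.7 to 165.4 CPM with a mean of 148.7 ± 14.0 (SD), and the 3 WKY rats stood at 32.9, 27.6 and 31.7 CPM. The lowest SHR library lay far above the highest WKY library at each age. Over all ages, RT1-A1 ran from 98.5 through a median of 121.2 to 165.4 CPM in SHR NTS (n = 28) and from 17.6 through 27.9 to 33.8 CPM in WKY NTS (n = 18). In the CVLM these were 89.9, 119.0 and 156.5 CPM in SHR against 20.9, 29.7 and 39.1 CPM in WKY, and in the RVLM 115.8, 142.9 and 178.0 CPM against 22.2, 32.0 and 40.9 CPM. No SHR library overlapped a WKY library in any region, which held for 0.761%, 0.805% and 0.738% of all genes tested in the NTS, CVLM and RVLM.

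The log2 difference of RT1-A1 was 2.19 (SE 0.059, adjusted p = 1.38e-29) in the NTS, 2.01 (SE 0.059, adjusted p = 1.89e-28) in the CVLM and 2.18 (SE 0.058, adjusted p = 5.11e-30) in the RVLM. These are 4.57-, 4.02- and 4.54-fold. RT1-A1 was called at every age in every region, 15 tests in all, with differences between 1.72 (CVLM, 12 wk) and 2.39 (RVLM, 24 wk). None of the 263 refits of these 15 tests under other settings lost a call.

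RT1-A2, the neighbouring heavy chain gene, moved the other way. It stood between 4.997 and 12.3 CPM in WKY NTS (median 8.16) and between 1.61 and 5.11 CPM in SHR NTS (median 2.76). In the CVLM, WKY ranged from 5.45 to 12.6 CPM (median 8.81) and SHR from 1.297 to 5.75 CPM (median 3.29). In the RVLM, WKY ranged from 6.93 to 12.3 CPM (median 8.89) and SHR from 2.15 to 5.36 CPM (median 4.30). The strains did not overlap in the RVLM, which held for 0.738% of all genes tested there. In the NTS and CVLM they met only at their edges. At no single age did they overlap in any region, and for how many of all genes this held was not computed. The log2 difference was -1.50 (SE 0.104, adjusted p = 2.02e-15) in the NTS, -1.41 (SE 0.113, adjusted p = 1.73e-13) in the CVLM and -1.17 (SE 0.091, adjusted p = 7.02e-14) in the RVLM, so that WKY was 2.84-, 2.65- and 2.25-fold higher. RT1-A2 was called in all 15 tests by age, but the CVLM call at 16 wk was lost without WKY 16 wk replicate 2 (-0.98, adjusted p = 0.0916) and the one at 24 wk without WKY 24 wk replicate 3 (-0.96, adjusted p = 0.0707). With each age fitted alone, the 24 wk calls were lost in the NTS, CVLM and RVLM (adjusted p = 0.0502, 0.0764 and 0.0518). With the replicate number as a block, the CVLM call at 12 wk, where all 3 same-numbered pairs correlated above 0.1, was lost (-1.38, adjusted p = 0.0677), as were those at 16 wk in the NTS and CVLM and at 24 wk in the CVLM and RVLM (adjusted p from 0.0786 to 0.193).

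The counts of these heavy chain genes rest on how fragments were divided between near-identical copies. The estimated count was not a whole number in 137 libraries for RT1-A1, in every library for RT1-A2, in 4 for RT1-S3 and in 0 for B2m, Tap1, Tapbp and Psmb9. The values of RT1-A1 and RT1-A2 are therefore uncertain as measures of each copy, and how the alleles of each strain match the reference copies was not tested. Of the fragments given to the pair, RT1-A1 took 75.6% ± 5.50 (SD, n = 18) in WKY NTS and 97.7% ± 0.526 (n = 28) in SHR NTS. The shares were 76.3% and 97.3% in the CVLM and 77.4% and 97.2% in the RVLM for WKY and SHR. The sum of both genes does not depend on the division within the pair, and it was 35.1 ± 4.88 CPM in WKY NTS and 127.6 ± 18.7 CPM in SHR NTS. It can still depend on how fragments were divided between the pair and other class I RT1 genes, which was not examined.

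**Figure D2:**
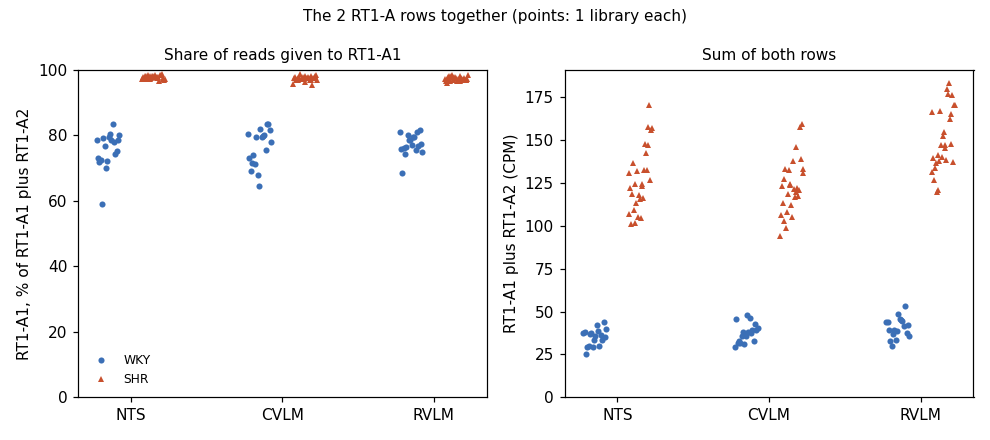
Left, the share of fragments given to RT1-A1 out of RT1-A1 plus RT1-A2 (y axis, percent). Right, the sum of both genes (y axis, CPM). Each point is 1 library, by region and strain. The SHR libraries lie between 95.2% and 98.8% and the WKY libraries between 58.9% and 83.6%, and the sums of the strains do not overlap.

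Summed, RT1-A1 and RT1-A2 were higher in SHR by 1.84 (SE 0.052) in the NTS, 1.67 (SE 0.056) in the CVLM and 1.86 (SE 0.054) in the RVLM on the log2 scale, or 3.58-, 3.18- and 3.63-fold (adjusted p = 6.93e-29, 1.70e-26 and 2.63e-28). Summed over all 21 class I RT1 genes of the tables, the difference was 0.55 (SE 0.039), 0.46 (SE 0.040) and 0.65 (SE 0.049) (adjusted p = 3.40e-15, 1.32e-12 and 2.54e-14). By age this sum was called in 13 of 15 tests, and at 12 wk it was 0.28 (SE 0.089, adjusted p = 0.0838) in the NTS and 0.27 (SE 0.091, adjusted p = 0.142) in the CVLM. This larger sum was 155.4 ± 18.2 CPM in WKY NTS and 229.7 ± 26.2 CPM in SHR NTS.

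RT1-S3, a gene of the nonclassical part of the class I region, was modestly lower in SHR. At 12 wk in the NTS it stood at 27.8, 40.5 and 33.9 CPM in the 3 WKY rats, and between 15.3 and 26.2 CPM in the 6 SHR rats. At 12 wk in the CVLM it stood at 27.2, 29.1 and 41.7 CPM in WKY and between 11.5 and 24.4 CPM in SHR. These were the ages at which it was called, 2 of 15 tests, with differences of -0.83 (SE 0.219, adjusted p = 0.0220) and -0.77 (SE 0.200, adjusted p = 0.0201), and WKY 12 wk was also its highest group. Without WKY 12 wk replicate 2, the NTS call was lost (-0.70, adjusted p = 0.235), as it was without WKY 12 wk replicate 3 or SHR 12 wk replicate 4. Without WKY 12 wk replicate 3, the CVLM call was lost (-0.56, adjusted p = 0.305), as it was without SHR 12 wk replicate 1. Both calls were also lost with each age fitted alone (adjusted p = 0.0666 and 0.311) and with the replicate number as a block (-0.81 and -0.87, adjusted p = 0.14 and 0.108), at an age where all same-numbered pairs of these regions correlated above 0.1.

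Over all ages, the medians of RT1-S3 in WKY and SHR were 22.8 and 16.6 CPM in the NTS, 21.2 and 16.7 CPM in the CVLM, and 21.1 and 16.7 CPM in the RVLM, with wide overlap. The mean log2 difference was -0.49 (SE 0.097, adjusted p = 0.00023), -0.40 (SE 0.089, adjusted p = 0.000792) and -0.31 (SE 0.101, adjusted p = 0.0344). In the RVLM, the call was lost in 8 fits that each left out a single rat, with adjusted p between 0.0503 and 0.0897. These rats were SHR 8 wk replicate 4, SHR 10 wk replicates 2 and 3, WKY 8 wk replicate 2, WKY 10 wk replicate 4, and replicate 3 of WKY at 12, 16 and 24 wk.

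**Figure D3:**
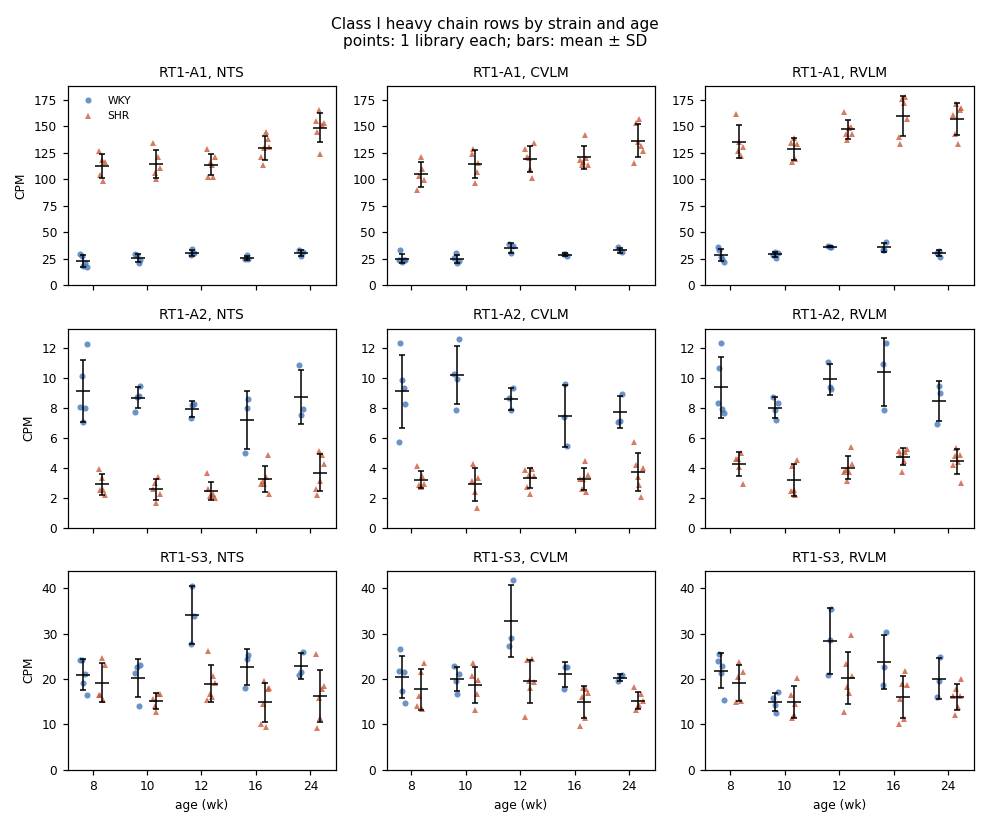
Levels of RT1-A1, RT1-A2 and RT1-S3 (y axis, CPM) against age (x axis, 8, 10, 12, 16 and 24 wk, evenly spaced) in the NTS, CVLM and RVLM. Each point is 1 library, blue circles WKY and red triangles SHR, with bars for mean ± SD. RT1-A1 is above in SHR and RT1-A2 above in WKY at every age, and RT1-S3 overlaps at most ages.

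B2m encodes beta-2 microglobulin, the light chain that every class I heavy chain needs at the cell surface. Its level ran from 184.4 through a median of 271.0 to 352.8 CPM in WKY NTS and from 181.1 through 240.1 to 399.3 CPM in SHR NTS. In the RVLM it ran from 249.5 through 316.3 to 588.1 CPM in WKY and from 188.8 through 305.5 to 507.7 CPM in SHR. The strains overlapped through most of their ranges in each region. The log2 difference was -0.12 (SE 0.079, adjusted p = 0.433) in the NTS, -0.13 (SE 0.057, adjusted p = 0.175) in the CVLM and -0.11 (SE 0.085, adjusted p = 0.480) in the RVLM. At single ages it lay between -0.43 and 0.20, and 0 of 15 tests by age were called.

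Tap1 and Tap2 encode the partner chains of the peptide transporter TAP, and they differed between the strains in opposite directions. Tap1 was lower in SHR NTS, with a median of 4.31 CPM (range 2.53 to 8.74) against 6.87 CPM (4.37 to 11.1) in WKY, and in SHR CVLM, with 3.49 CPM (1.41 to 5.53) against 5.05 CPM (2.07 to 6.78). In the RVLM the medians were 6.47 CPM in SHR (3.86 to 10.3) and 5.91 CPM in WKY (3.07 to 11.3). SHR libraries lay below the WKY median in 24, 26 and 11 of 28 cases in the NTS, CVLM and RVLM. The log2 difference was -0.59 (SE 0.104, adjusted p = 3.65e-05), -0.47 (SE 0.119, adjusted p = 0.00427) and -0.06 (SE 0.114, adjusted p = 0.832). Tap1 was called in 2 of 15 tests by age, in the NTS at 8 wk (-0.80, SE 0.223, adjusted p = 0.027) and at 12 wk (-0.90, SE 0.233, adjusted p = 0.0192). Without a single rat, the 8 wk call was lost in 4 fits (SHR replicates 1, 3 and 4, WKY replicate 5, adjusted p from 0.0583 to 0.09) and the 12 wk call in 4 fits (SHR replicates 5 and 6, WKY replicates 2 and 3, adjusted p from 0.0543 to 0.165). Both were lost with each age fitted alone (adjusted p = 0.103 and 0.155) and without the libraries of number 2 outside 10 wk (-0.91 and -0.81, adjusted p = 0.097 and 0.0594). With the replicate number as a block, the 12 wk call was lost (-0.62, adjusted p = 0.393).

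Tap2 was higher in SHR, and 27, 26 and 28 of the 28 SHR libraries lay above the WKY median in the NTS, CVLM and RVLM. It stood between 2.69 and 12.3 CPM (median 7.43) in SHR NTS and between 2.05 and 6.17 CPM (median 3.83) in WKY NTS. In the CVLM the medians were 6.26 CPM in SHR and 2.63 CPM in WKY, and in the RVLM 8.32 and 2.90 CPM. The log2 difference was 0.95 (SE 0.133, adjusted p = 5.65e-07), 1.31 (SE 0.199, adjusted p = 2.30e-06) and 1.47 (SE 0.184, adjusted p = 4.60e-08), which is 1.93-, 2.48- and 2.76-fold. The estimated count of Tap2 was not whole in 130 libraries (94.2%), as RSEM gives where fragments also match another place, and its level is uncertain to that extent.

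By age, Tap2 was above 0 in all 15 tests (0.81 to 1.90) and called in 6, at 8 and 24 wk in the NTS, at 24 wk in the CVLM and at 8, 10 and 16 wk in the RVLM. Each of these 6 calls was lost without some single rat. At 24 wk they were lost in the NTS without SHR replicate 3 or any WKY replicate, and in the CVLM without WKY replicate 3 (1.46, adjusted p = 0.137). At 8 wk they were lost in the NTS without replicate 4 of either strain and in the RVLM without WKY replicate 3. In the RVLM, they were lost at 10 wk without WKY replicate 3, and at 16 wk without WKY replicate 1 or 2. Tests not called became called in the NTS without WKY 12 wk replicate 2 or SHR 16 wk replicate 3, and in the RVLM without WKY 24 wk replicate 1 or SHR 24 wk replicate 6. At 8 wk in the RVLM the difference was 0.88 (adjusted p = 0.297) with the library number as a term, and there and in the NTS the 8 wk call was lost without the libraries of number 2 (1.08 and 1.17, adjusted p = 0.354 and 0.149). With each age fitted alone, the 8 wk calls in the NTS and RVLM and the 24 wk call in the CVLM were lost (adjusted p from 0.0684 to 0.0822), and the CVLM became called at 10 and 12 wk. With the replicate number as a block, the 3 RVLM calls were lost (adjusted p from 0.053 to 0.239).

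Tapbp encodes tapasin, which holds the heavy chain at the TAP transporter while peptides are loaded. In the RVLM at 16 wk, its level was 67.1, 66.9, 56.6, 76.6, 76.3 and 75.6 CPM in the 6 SHR rats and 30.4, 28.8 and 41.2 CPM in the 3 WKY rats. Over all ages, Tapbp ran from 35.4 through a median of 52.7 to 71.9 CPM in SHR NTS and from 12.5 through 32.9 to 45.3 CPM in WKY NTS. In the CVLM these values were 36.0, 55.4 and 68.4 CPM in SHR and 15.5, 31.3 and 38.1 CPM in WKY, and in the RVLM 37.1, 65.3 and 76.6 CPM and 14.3, 29.9 and 41.2 CPM. All 28 SHR libraries of each region lay above the WKY median, and the ranges overlapped in part. All SHR rats exceeded all WKY rats at 4, 4 and 5 of the 5 ages in the NTS, CVLM and RVLM. How many of all genes separate in this way at single ages was not computed.

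The log2 difference of Tapbp was 0.83 (SE 0.086, adjusted p = 3.46e-10) in the NTS, 0.87 (SE 0.077, adjusted p = 4.87e-12) in the CVLM and 1.07 (SE 0.082, adjusted p = 4.47e-14) in the RVLM, which is 1.77-, 1.82- and 2.11-fold. It was called in 12 of 15 tests by age and missed the threshold in the NTS at 12 wk (0.64, adjusted p = 0.0663) and 24 wk (0.47, adjusted p = 0.27) and in the CVLM at 12 wk. Calls were lost without single WKY rats in the NTS at 16 wk (replicate 1 or 2), in the CVLM at 16 wk (replicate 3) and at 24 wk (replicate 1 or 3), and in the RVLM at 24 wk (replicate 1 or 3), with adjusted p from 0.053 to 0.123. With each age fitted alone, the NTS 8 wk call and the RVLM 24 wk call were lost (adjusted p = 0.0992 and 0.0639). With the replicate number as a block, those in the NTS at 16 wk and the RVLM at 24 wk were lost (adjusted p = 0.0582 and 0.127).

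Tapbp also moved with the library number. Among the WKY rats of 8 wk, the 2 libraries with number 1 held 32.0 and 39.1 CPM in the NTS, and the 3 with number 2 held 12.5 to 18.6 CPM. In the CVLM these were 30.5 and 35.4 CPM against 17 to 19.1 CPM, and in the RVLM 30.0 and 32.4 CPM against 14.3 to 20.9 CPM. The SHR library of number 2 at 12 wk in the RVLM held 43.5 CPM, where the 5 others held 63.4 to 70.3 CPM. With the number as a term in the fit, the strain difference of Tapbp was 0.81, 0.84 and 1.04 (adjusted p = 1.55e-12, 1.89e-17 and 1.59e-18), and the same members were called in each region. Without the libraries of number 2 outside 10 wk, the 8 wk NTS difference was 0.45 instead of 1.03 and its call was lost (adjusted p = 0.142), whereas the 3 tests not called, NTS 12 and 24 wk and CVLM 12 wk, became called (0.67, 0.50 and 0.60). The 10 wk rats, all of number 2, give a comparison within the number, and there Tapbp was higher in SHR by 1.17 (SE 0.187) in the NTS, 1.06 (SE 0.168) in the CVLM and 1.09 (SE 0.177) in the RVLM. RT1-A1 also had lower levels in number 2 among these WKY rats, at 17.6 to 21.2 CPM against 27.7 and 29.7 CPM in the NTS, and at 10 wk its strain difference was 2.17, 2.19 and 2.14.

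Psmb8 and Psmb9 encode catalytic subunits that replace standard ones in the immunoproteasome. Psmb8 was higher in SHR at every age in each region, with no overlap between the rats of the strains at any age. Small groups separate more easily than all rats together, and the share of all genes without overlap at single ages was not computed. Over all ages, the strains overlapped in part in each region. In the NTS at 24 wk it stood at 15.2, 15.6, 19.4, 16.99, 17.3 and 17.8 CPM in the 6 SHR rats and 5.85, 7.25 and 7.69 CPM in the 3 WKY rats. Over all ages, it ran from 8.32 through a median of 14.0 to 19.4 CPM in SHR NTS and from 3.74 through 6.10 to 9.20 CPM in WKY NTS. The medians were 12.3 and 5.89 CPM in the CVLM and 13.1 and 6.50 CPM in the RVLM for SHR and WKY. All 28 SHR libraries of each region were above the WKY median.

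The log2 difference of Psmb8 was 1.18 (SE 0.076, adjusted p = 2.54e-16) in the NTS, 0.99 (SE 0.083, adjusted p = 6.48e-13) in the CVLM and 1.03 (SE 0.089, adjusted p = 2.26e-12) in the RVLM, or 2.26-, 1.99- and 2.04-fold. It was called in all 15 tests by age (0.65 to 1.59). The NTS call at 12 wk was lost without WKY 12 wk replicate 1 (0.60, adjusted p = 0.139) or replicate 2 (0.67, adjusted p = 0.109), the RVLM call at 12 wk without WKY 12 wk replicate 1 (0.84, adjusted p = 0.0726), and the RVLM call at 24 wk without WKY 24 wk replicate 1 (0.85, adjusted p = 0.0616). These 3 calls were also lost with each age fitted alone (adjusted p = 0.14, 0.145 and 0.0701). With the replicate number as a block, the 12 wk calls in the NTS (0.74, adjusted p = 0.11) and RVLM (0.90, adjusted p = 0.066) and the 16 wk call in the CVLM (0.76, adjusted p = 0.0505) were lost. The estimated count of Psmb8 was not whole in 75 libraries (54.3%).

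Psmb9, which lies beside Tap1 in the gene order, had overlapping levels in the strains. Its medians were 6.29 CPM in WKY and 6.07 CPM in SHR in the NTS, 3.66 and 4.06 CPM in the CVLM, and 4.33 and 5.16 CPM in the RVLM. The log2 difference was -0.16 (SE 0.089, adjusted p = 0.298), -0.06 (SE 0.098, adjusted p = 0.799) and 0.11 (SE 0.131, adjusted p = 0.697), and 0 of 15 tests by age were called. In the CVLM at 12 wk, where WKY was highest (6.25 ± 1.56 CPM, n = 3, against 3.77 ± 0.546 CPM, n = 6), it became called without SHR 12 wk replicate 1 (-0.81, adjusted p = 0.0455) or WKY 12 wk replicate 2 (-0.95, adjusted p = 0.0178).

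**Figure D4:**
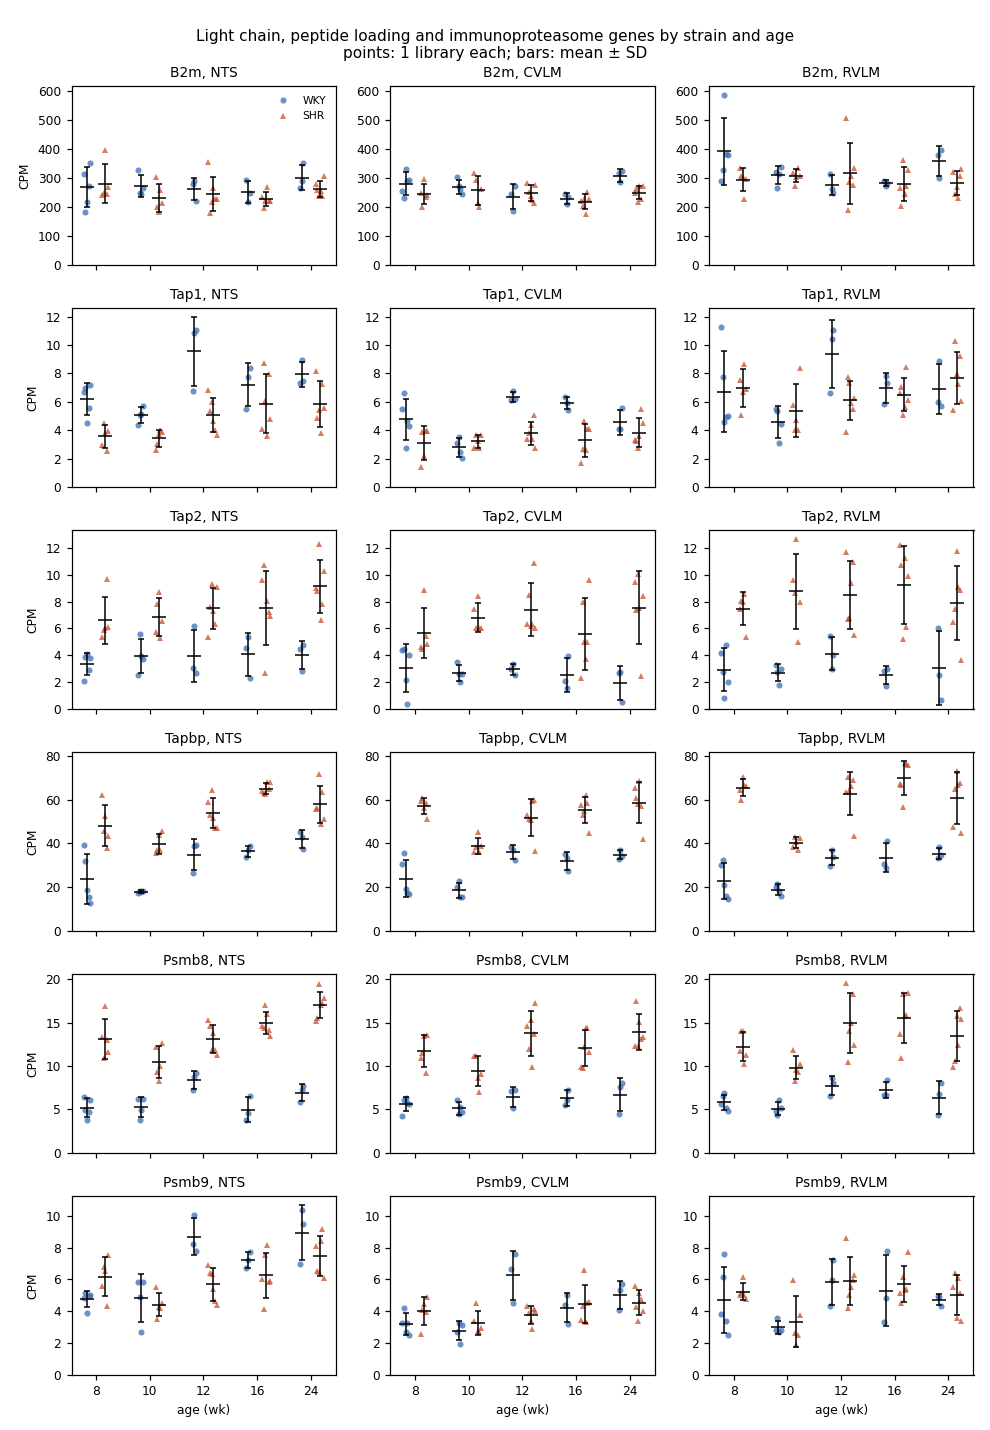
Levels of B2m, Tap1, Tap2, Tapbp, Psmb8 and Psmb9 (y axis, CPM) against age (x axis, 8, 10, 12, 16 and 24 wk, evenly spaced) in the NTS, CVLM and RVLM. Each point is 1 library, blue circles WKY and red triangles SHR, with bars for mean ± SD. Psmb8 is above in SHR at every age, Tapbp is lower at 10 wk in both strains, and B2m and Psmb9 overlap.

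By age, members were called in every region from 8 wk on. The paper considers SHR of the youngest group prehypertensive but reports no blood pressure for that group. Whether the differences in the youngest rats depend on blood pressure was not tested. At 8 wk, 6, 4 and 5 members were called in the NTS, CVLM and RVLM, where 5.79%, 7.64% and 9.78% of all genes were called. All SHR libraries of this age carried number 1, whereas 3 of the 5 WKY libraries per region carried number 2. Without the libraries of number 2 outside 10 wk, the NTS calls of Tap1, Tap2 and Tapbp were lost (adjusted p = 0.097, 0.149 and 0.142). The RVLM call of Tap2 was lost too (adjusted p = 0.354). At 10 wk, 4, 4 and 5 were called (4.44%, 3.18% and 2.30% of all genes). At 12 wk, 5, 4 and 4 were called (3.10%, 2.62% and 1.70% of all genes). At 16 wk, 4, 4 and 5 were called (1.73%, 2.27% and 1.65% of all genes). At 24 wk, 4, 5 and 4 were called (2.46%, 7.13% and 2.24% of all genes). RT1-A1, RT1-A2 and Psmb8 made up 3 of the calls at each age in each region.

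The test of whether the strain difference itself changed with age called 0 members in any region with edgeR, where 0.0145%, 0.0224% and 0.00746% of all genes were called in the NTS, CVLM and RVLM, and DESeq2 also called 0 members. Without adjustment, 2, 3 and 1 members fell under 0.05, namely Psmb8 and Psmb9 in the NTS, Tap1, Tapbp and Psmb9 in the CVLM and Tapbp in the RVLM. The lowest of these was Psmb8 in the NTS, whose adjusted p was 0.378.

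Levels of several members differed between ages within a strain. In WKY, 3 members were called in the NTS (Tapbp, Psmb8 and Psmb9), 5 in the CVLM (RT1-A1, RT1-S3, Tap1, Tapbp and Psmb9) and 1 in the RVLM (Tapbp), where 12.5%, 22.2% and 6.79% of all genes were called. In SHR, 5 were called in the NTS (RT1-A1, Tap1, Tapbp, Psmb8 and Psmb9), 2 in the CVLM and 2 in the RVLM (Tapbp and Psmb8 in both), where 18.7%, 20.0% and 14.1% of all genes were called. RT1-A1 in SHR NTS had means of 112.9 ± 11.4, 114.3 ± 13.3, 113.8 ± 10.2, 129.4 ± 11.1 and 148.7 ± 14.0 CPM (SD) from the youngest to the oldest group, highest at the oldest age (adjusted p = 0.023). Psmb8 in SHR NTS had 13.1 ± 2.30, 10.5 ± 1.85, 13.1 ± 1.65, 14.9 ± 1.32 and 17.03 ± 1.54 CPM, lowest at 10 wk (adjusted p = 0.0111). Tapbp was lowest at 10 wk in both strains and all regions, with 39.7 ± 4.57 CPM in SHR NTS and 18.0 ± 0.574 CPM in WKY NTS. With the library number as a term, 0 members were called for age in either strain in any region, and since every 10 wk library carried number 2, age 10 wk and the number could be told apart only through the 5 rats per region of number 2 at other ages.

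Because each rat gave 3 regions, levels were compared between regions within rats. The RVLM held more class I RNA than the CVLM for 7 of 9 members, with 54.0% of all genes called in that comparison. Tap1 was higher by 0.73 (SE 0.073, adjusted p = 2.06e-14), B2m by 0.29 (SE 0.045, adjusted p = 5.31e-08), RT1-A1 by 0.22 (SE 0.031, adjusted p = 5.57e-09), RT1-A2 by 0.22 (SE 0.074, adjusted p = 0.00791) and Psmb9 by 0.23 (SE 0.069, adjusted p = 0.0027) on the log2 scale. Tap2 (0.29, adjusted p = 0.0472) and Tapbp (0.09, adjusted p = 0.0253) were also called. The Tap2 call was lost in 42 of 54 refits, among them RLE scaling (adjusted p = 0.0581), no filter (0.28, adjusted p = 0.0836), the library number as a term (0.39, adjusted p = 0.0827) and limma, both with all rats (0.29, adjusted p = 0.0579) and without most single rats (0.21 to 0.30). The Psmb9 call was lost with the number as a term (0.25, adjusted p = 0.0504). Tapbp missed the threshold with DESeq2, with RLE scaling and with either other filter (adjusted p from 0.0579 to 0.073), with the number as a term (adjusted p = 0.21), without the libraries of number 2 outside 10 wk (adjusted p = 0.0795), and without WKY 16 wk replicate 3 in limma (0.07, adjusted p = 0.0588).

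Against the NTS, 3 members were called in the CVLM (65.9% of all genes called), and 5 in the RVLM (72.7% of all genes called). Psmb9 was lower in the CVLM by 0.64 (SE 0.068) and in the RVLM by 0.40 (SE 0.067), Tap1 was lower in the CVLM by 0.51 (SE 0.073) and higher in the RVLM by 0.21 (SE 0.071), and Tap2 was lower in the CVLM by 0.42 (SE 0.125). With the library number as a term, the Tap2 difference was -0.21 and was not called (adjusted p = 0.338). RT1-A1 (0.24, SE 0.031), RT1-A2 (0.32, SE 0.074) and B2m (0.25, SE 0.045) were higher in the RVLM than in the NTS. RT1-S3 and Psmb8 were not called between any regions. Psmb8 became called in the CVLM against the NTS with the number as a term (-0.19, adjusted p = 0.0359, beside -0.09) and, in limma, without WKY 8 wk replicate 3 (-0.11, adjusted p = 0.0496). In the RVLM against the CVLM it became called in limma without SHR 10 wk replicate 2, SHR 12 wk replicate 6, SHR 24 wk replicate 2, WKY 10 wk replicate 1 or WKY 12 wk replicate 1 (0.11 to 0.12, adjusted p from 0.0323 to 0.0467, beside 0.10). The members' counts did not exceed the share of all genes called except in the RVLM against the CVLM. The regions also differed in their cells, since oligodendrocyte markers summed to a mean of 27500 CPM in WKY NTS, 54370 in WKY CVLM and 44530 in WKY RVLM, and microglial markers to 447.4, 347.5 and 360.1 CPM, and the part of these in the differences was not tested.

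**Figure D5:**
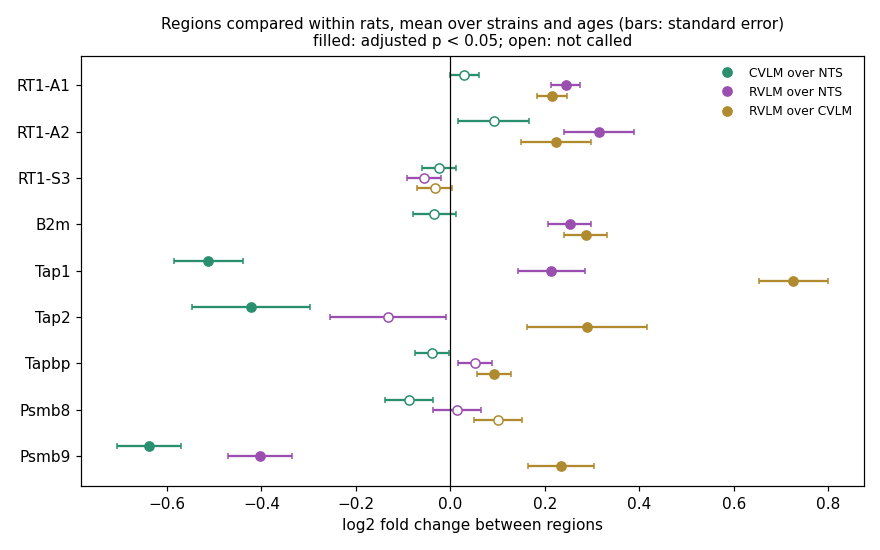
Differences between regions in each class I gene within rats (x axis, log2 fold change, mean over strains and ages), with bars for the standard error and filled points for an adjusted p under 0.05. Tap1 and Psmb9 differ most, with Tap1 at 0.73 between the RVLM and CVLM and Psmb9 at -0.64 between the CVLM and NTS.

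For Tap1, the strain difference itself differed between regions. It was higher in the RVLM than in the NTS by 0.57 (SE 0.143, adjusted p = 0.0135), and Tap1 was the 1 member called in this comparison (1.82% of all genes called), with 6 members at an unadjusted p under 0.05. For the CVLM against the NTS, edgeR called 0 members (0.449% of all genes called), with 1 at an unadjusted p under 0.05, and for the RVLM against the CVLM it called 0 (0.320% of all genes called), with 3 at an unadjusted p under 0.05. DESeq2 called 2 members for the RVLM against the NTS, Tap1 and Tapbp (0.24, adjusted p = 0.0409). In edgeR, Tapbp lay just above the threshold (0.24, SE 0.071, adjusted p = 0.0573). It became called without the libraries of number 2 outside 10 wk (0.30, adjusted p = 0.0167), and in limma without some single rats (adjusted p from 0.0289 to 0.0487). The call for Tap1 was lost without the libraries of number 2 outside 10 wk (0.47, adjusted p = 0.102). In limma fits on within-rat differences it was lost without any of 9 single rats, SHR 10 wk replicates 1 and 5, WKY 10 wk replicates 3 and 4, WKY 12 wk replicate 2, WKY 16 wk replicates 2 and 3 and WKY 24 wk replicates 1 and 3, with adjusted p from 0.051 to 0.066 and differences from 0.52 to 0.56.

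The tables held 18 other class I RT1 genes, of which 9 passed the filter in each region. In the mean strain difference, 7, 6 and 6 were called in the NTS, CVLM and RVLM, with 2, 1 and 2 higher in SHR. Of all genes tested, 11.2%, 12.3% and 10.8% were called. RT1-N2 was lower by 1.86 (SE 0.162), 1.96 (SE 0.154) and 1.73 (SE 0.178), with medians of 3.91 CPM in WKY and 1.08 CPM in SHR in the NTS. RT1-N3 was lower by 0.87, 0.90 and 0.53, RT1-CE7 by 0.59, 0.58 and 0.38 and RT1-T24-4 by 0.31, 0.42 and 0.34 in the 3 regions, and RT1-CE5 by 0.25 and 0.36 in the NTS and CVLM. RT1-CE4 was higher by 0.41 (SE 0.081), 0.39 (SE 0.082) and 0.49 (SE 0.082) in the 3 regions, and RT1-T24-3 by 0.42 and 0.33 in the NTS and RVLM. RT1-M3-1 and RT1-T24-1 were not called. Genes of this family can share fragments, and how fragments were divided among these genes was not examined. Leaving out single rats gave 5 to 7 calls in the NTS, 6 in every CVLM fit and 5 to 6 for the RVLM.

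Of 26 other genes of the pathway, 25 were matched by symbol and 23, 22 and 22 passed the filter in the NTS, CVLM and RVLM. Only 2, 3 and 2 were called, which is 8.70%, 13.6% and 9.09% of those tested beside 11.2%, 12.3% and 10.8% of all genes. The median differences of the list were -0.008, -0.007 and 0.06. The chaperones of the peptide loading complex, Calr, Canx and Pdia3, the trimming peptidase Erap1, and the standard proteasome subunits Psmb5, Psmb6 and Psmb7 were not called in any region. Psmb10, the remaining catalytic subunit of the immunoproteasome, was lower in the CVLM by 0.28 (SE 0.089, adjusted p = 0.0303), and Psme1, a subunit of the proteasome activator, was lower in the NTS by 0.19 (SE 0.061, adjusted p = 0.0303). The NTS count fell from 2 to 1 without any of 11 single rats, SHR 8 wk replicates 1, 4 and 5, WKY 8 wk replicate 1, WKY 10 wk replicate 4, WKY 12 wk replicates 1 and 2, WKY 16 wk replicates 1 and 3 and WKY 24 wk replicates 2 and 3. The CVLM count rose to 5 without WKY 12 wk replicate 2. Hfe, a class I-like protein of iron uptake, was higher in the CVLM by 0.68 (SE 0.098) and in the RVLM by 0.83 (SE 0.103).

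Lilrb3a, a leukocyte receptor gene of a family that binds class I molecules, was close to absent in WKY. It ranged from 8.14 to 19.8 CPM in SHR NTS (median 11.9) and from 0 to 0.567 CPM in WKY NTS. In the CVLM the ranges were 3.99 to 14.8 and 0 to 0.848 CPM, and in the RVLM 4.16 to 14.8 and 0 to 0.362 CPM. The strains did not overlap in any region (adjusted p = 2.53e-25, 2.47e-21 and 1.80e-23).

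Across the libraries of all regions, with the mean of each region, strain and age removed, the members varied together only weakly. Over the 36 pairs, Pearson's r on log2 CPM ranged from -0.327 to 0.471 with a median of 0.154, and 29 pairs were above 0. RT1-A1 and Tapbp had the highest value (r = 0.471), and in the NTS and RVLM both were lower in libraries of number 2 among the WKY rats of 8 wk. The libraries share depth, batch and rat, since 3 came from each animal, so these values are descriptions. Of 13115 genes tested in all regions, those closest to B2m were RGD1562987 (r = 0.928), Mt-co2 (r = 0.920) and Psma2 (r = 0.900). Those closest to Tap1 were Med16, Lzts2 and Itpk1 (r = 0.508, 0.493 and 0.483), and those closest to RT1-A1 were Tmem176a, Mfge8 and Ddah2 (r = 0.573, 0.542 and 0.532).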

How the data were processed

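Per the labels and the study's methods, the authors sequenced total RNA of tissue punches as paired-end reads, aligned them to rn6 with STAR inside RSEM and deposited 1 table of expected counts per region. The methods also name ComBat_seq, and whether it was applied to the deposited expected counts is not given in the sources used here. After rounding, a gene entered the tests of a region if its highest rlog value was at least 3.5, which left 13793, 13408 and 13411 genes in the NTS, CVLM and RVLM. With R 4.3.3, edgeR 4.0.16 (TMM, robust quasi-likelihood fit, quasi-likelihood F test, Benjamini-Hochberg adjustment) was fitted once per region to the 10 groups of strain and age, without pairing. Regions were compared in 1 fit of all libraries with a term for each of 46 rats, over 14043 genes. DESeq2 1.42.0, limma 3.58.1, RLE scaling, other filters, the library number, each age fitted alone, a replicate block and leaving out each rat were alternatives. Named were all 9 members, other class I RT1 and pathway genes called in at least 1 region, and the 3 genes most like B2m, Tap1 and RT1-A1. Likeness used log2 CPM with a prior count of 2. The fit that compares regions within rats was tested on simulated counts with known changes for a subset of genes. The members and lists were chosen with earlier results of these data known. Depth was 5904581 to 17889417 counts per library, and small counts limit the precision of low genes.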

Additional observations from a re-analysis of the deposited data

Results flagged for a closer look

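In groups of 4 to 10 rats, a single library that stood far from the others was looked for in 189 groups of member, region, strain and age, and 10 had one. Chance alone gives about 1 in 20 groups. RT1-A1 stood at 142 CPM in the CVLM of SHR 16 wk replicate 4 (the others 114 to 120) and at 33.3 CPM in the CVLM of WKY 8 wk replicate 2 (the others 22.1 to 23.6). RT1-A2 stood at 3.62 CPM in the NTS of SHR 12 wk replicate 1 (1.998 to 2.59). B2m stood at 399 CPM in the NTS of SHR 8 wk replicate 3 (241 to 270.0). Tap2 stood at 9.69 CPM in the NTS of SHR 8 wk replicate 4 (5.34 to 6.11), at 8.87 CPM in the CVLM of SHR 8 wk replicate 3 (4.47 to 5.46) and at 2.44 CPM in the CVLM of SHR 24 wk replicate 5 (7.35 to 10.1). Tapbp stood at 43.5 CPM in the RVLM of SHR 12 wk replicate 6, a library of number 2 (63.4 to 70.3). Psmb9 stood at 3.87 CPM in the NTS of WKY 8 wk replicate 3 (4.81 to 5.12) and at 6.14 CPM in the RVLM of SHR 8 wk replicate 3 (4.76 to 5.15).

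The strain difference of Tap1 was higher in the RVLM than in the NTS by 0.572 on the log2 scale in the direct test of the difference within rats (edgeR, adjusted p = 0.0135). This call was lost without the libraries of number 2 outside 10 wk (0.47, adjusted p = 0.102). In limma it was lost without some single rats (adjusted p from 0.051 to 0.066).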

How the results depend on the processing

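Of 1440 alternative values of the mean strain difference of the members, 1432 stayed on the same side of the threshold with the same direction, and 8, all RT1-S3 in the RVLM without a single rat, lost the call. Adding RT1-A1 and RT1-A2, or all class I RT1 genes, gave 1.84 or 0.55 in the NTS, 1.67 or 0.46 in the CVLM and 1.86 or 0.65 in the RVLM, opposite in sign to RT1-A2 and, for the sum of all, to RT1-S3, by construction of the sum. When calls needed both an adjusted p no higher than 0.01 and a difference of 1 or more in size, 3 members were called in the NTS and 3 in the CVLM, 1 pathway gene and 1 other RT1 gene per region, for age 0 in SHR NTS, 0 in SHR CVLM, 1 in SHR RVLM and 3 in WKY CVLM, and 0 between regions in level in each comparison and 0 in the strain difference of the RVLM and NTS. Age calls fell to 0 in both strains and every region with the library number as a term. They were 5 in WKY NTS and 2 in WKY RVLM with DESeq2, 2 in WKY RVLM without number 2 outside 10 wk, and 1 in SHR CVLM and 1 in SHR RVLM without a filter. With the number as a term, 4 members were called between the RVLM and CVLM, and with DESeq2 2 in the strain difference of the RVLM and NTS, where the cause was not tested. Leaving out single rats gave ranges of 0 to 3 age calls in SHR CVLM (0 without SHR 10 wk replicate 4 or 5, 1 without replicate 1 or 3), 3 to 5 in SHR NTS (3 without SHR 10 wk replicate 2 or 4), 1 to 3 in SHR RVLM (1 without SHR 10 wk replicate 2, 3 or 4), 3 to 5 in WKY CVLM (3 without WKY 10 wk replicate 3) and 1 to 3 in WKY RVLM (3 without WKY 8 wk replicate 1). They gave 2 to 5 pathway calls in the CVLM (5 without WKY 12 wk replicate 2) and 1 to 2 in the NTS, 0 to 1 for the strain difference of the RVLM and CVLM and 0 to 2 for that of the RVLM and NTS. The last 2 used limma, since edgeR was not run for each rat left out of the fit within rats.

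The replicate numbers in the labels do not say that rats were paired, and of 54 pairs of same-numbered samples 32 correlated above 0.1 (range -0.338 to 0.569). With the replicate block, 7, 7 and 6 members were called, as without it, member-by-age calls were 18, 16 and 17 against 23, 21 and 23, and the pathway list had 1 call in the NTS against 2. All pairs correlated above 0.1 in 4 of the 15 sets of region and age, the NTS at 12 and 24 wk and the CVLM at 10 and 12 wk. The block could not be fitted for age within a strain. With each age fitted alone, member-by-age calls were 16, 20 and 18.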

Other observations

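Interferon response genes, whose products are induced along with many class I genes in infection, were mostly lower in SHR where they were called. Of 10 genes, all of them tested, 7, 5 and 5 were called in the NTS, CVLM and RVLM, and 6, 4 and 4 of those were lower in SHR, beside 11.2%, 12.3% and 10.8% of all genes called in either direction. Mx2, an antiviral GTPase, was lower by 0.53 (SE 0.103), 0.50 (SE 0.121) and 0.48 (SE 0.112). Usp18, which restrains interferon signalling, was lower by 0.68 (SE 0.154), 0.58 (SE 0.164) and 0.66 (SE 0.165). Oas1a, an RNA-sensing synthetase, was lower by 0.64, 0.60 and 0.63, and Ifit2 by 0.48, 0.41 and 0.49. Irf7, Ifit3 and Rsad2 were not called. Ifit1 was the exception, at 5.56 to 28.4 CPM in SHR NTS and 0 to 0.209 CPM in WKY NTS, without overlap in any region.

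For markers of the other cell types, calls between the strains are set beside 11.2%, 12.3% and 10.8% of all genes. The lists are too short for their shares to be ranked against those of all genes. Neuron markers had 0 of 3 called in each region, endothelium 1, 0 and 1 of 7, astrocytes 0, 0 and 1 of 4, leptomeninges 0, 0 and 1 of 4 and medullary autonomic neurons 0 of 4, 0 of 3 and 0 of 3. Choroid plexus had 2 of 4 called lower in the NTS and 1 of 2 called higher in the CVLM.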
